A study of Capsicum annuum with 12 samples.

Results

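The outermost 2 Mb of the 24 chromosome ends of the pepper genome were examined for 3 histone marks, in young leaves of Capsicum annuum cv. 59. An end is the first 2 Mb of a chromosome, counted from its first base, or the last 2 Mb, counted back from the last peak end over 6 peak lists. A peak, which is a stretch where the precipitated DNA was enriched over its local background, belongs to an end when its midpoint lies there. The 24 ends held 8168 of the 171476 peaks on the 12 chromosomes, 4.76% of them in 1.57% of the 3066 Mb that the peaks span. They held 1848 and 1804 H3K4me3 peaks in replicates 1 and 2, 1766 and 1505 H3K27me3 peaks, and 659 and 586 H3K9me2 peaks. Leaf chromatin was fixed with formaldehyde, sonicated and precipitated with an antibody to 1 of the marks, and each library had an input sample without antibody. Cultivar and tissue were shared by all libraries, no treatment or genotype was compared, and the 2 libraries of a mark differ in replicate number alone. The labels do not say whether replicates were separate plants, so the spread between them may be technical.

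Trimethylation of lysine 4 of histone H3 (H3K4me3) sits around the start of transcribed genes. H3K27me3 is laid down by Polycomb proteins over genes that are kept silent in a tissue. H3K9me2 is, in Arabidopsis, bound up with DNA methylation over transposons and other repeats. In pepper and its relatives, the gene-rich parts of chromosomes lie in the outer arms and the repeat-rich parts in the middle. At the very ends lie the telomere repeats and, next to them, subtelomeric repeats. The ends are therefore a place where gene-rich chromatin and repeats meet.

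H3K4me3 covered more of the ends than either other mark, and H3K9me2 the least. H3K4me3 peaks covered 3.54 and 3.56% of the bases of the ends in replicates 1 and 2, H3K27me3 peaks 2.39 and 2.13%, and H3K9me2 peaks 0.528 and 0.495%. For coverage, the gap between replicates was smaller than the gap to any other mark. Peaks numbered 38.5 and 37.6 per Mb for H3K4me3, 36.8 and 31.4 for H3K27me3, and 13.7 and 12.2 for H3K9me2, so by number replicate 1 of H3K27me3 stood nearer to H3K4me3 than to its own replicate 2. The median H3K4me3 peak was 828.5 and 859.5 bp wide, the median H3K27me3 peak 447 and 463 bp, and the median H3K9me2 peak 320 and 337 bp. Permuting the mark labels over the 6 libraries gave an exact p of 0.0667 for each of these measures and for the ratio of coverage given next, which is the smallest that 90 arrangements allow. The threshold of 0.05 was thus out of reach in this design.

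Set beside the next 2 to 10 Mb of the same arms, the ends had slightly more H3K4me3, less H3K27me3 and more H3K9me2 in both replicates, and 0 of these 3 differences passed the test over chromosomes. H3K4me3 covered 3.54 and 3.56% of the ends and 3.38 and 3.38% of the next stretches in replicates 1 and 2, a ratio of 1.04 and 1.05. H3K27me3 covered 2.39 and 2.13% of the ends and 2.85 and 2.495% of the next stretches, a ratio of 0.838 and 0.854. H3K9me2 covered 0.528 and 0.495% of the ends and 0.319 and 0.267% of the next stretches, a ratio of 1.66 and 1.86. The middle of the chromosomes, beyond 10 Mb from either end, was far less covered, at 0.806 and 0.808% for H3K4me3, 0.653 and 0.571% for H3K27me3, and 0.197 and 0.151% for H3K9me2. Compared with the middle, which was not part of a test, the ends thus had more of each mark in both replicates.

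The difference between end and next stretch was tested with an exact two-sided permutation that flips signs chromosome by chromosome, with both ends of a chromosome and both replicates averaged first. Chromosomes are parts of one genome, so these p-values speak of arrangement along it and not of the spread between plants. H3K4me3 coverage differed by 0.166 ± 1.29 points (SD, 12 chromosomes, end higher on 6, adjusted exact p = 0.653). H3K27me3 coverage differed by −0.412 ± 1.40 points (end higher on 6, adjusted exact p = 0.507). H3K9me2 coverage differed by 0.219 ± 0.321 points, again with the end higher on 6 chromosomes (exact p = 0.0381, adjusted 0.114). Of the 21 tests made here, 0 passed the threshold after adjustment and 5 had an unadjusted p under 0.05. When the end was taken as the outermost 1 Mb, the H3K9me2 difference was 0.342 points with the end higher on 10 of 12 chromosomes, which passed (adjusted exact p = 0.0366). With the outermost 3 Mb it was 0.181 points, which did not pass (adjusted exact p = 0.0754). Without chromosome 10, left out after its values were seen, the 2 Mb difference was 0.159 points (exact p = 0.0762, adjusted 0.229).

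**Figure D1:**
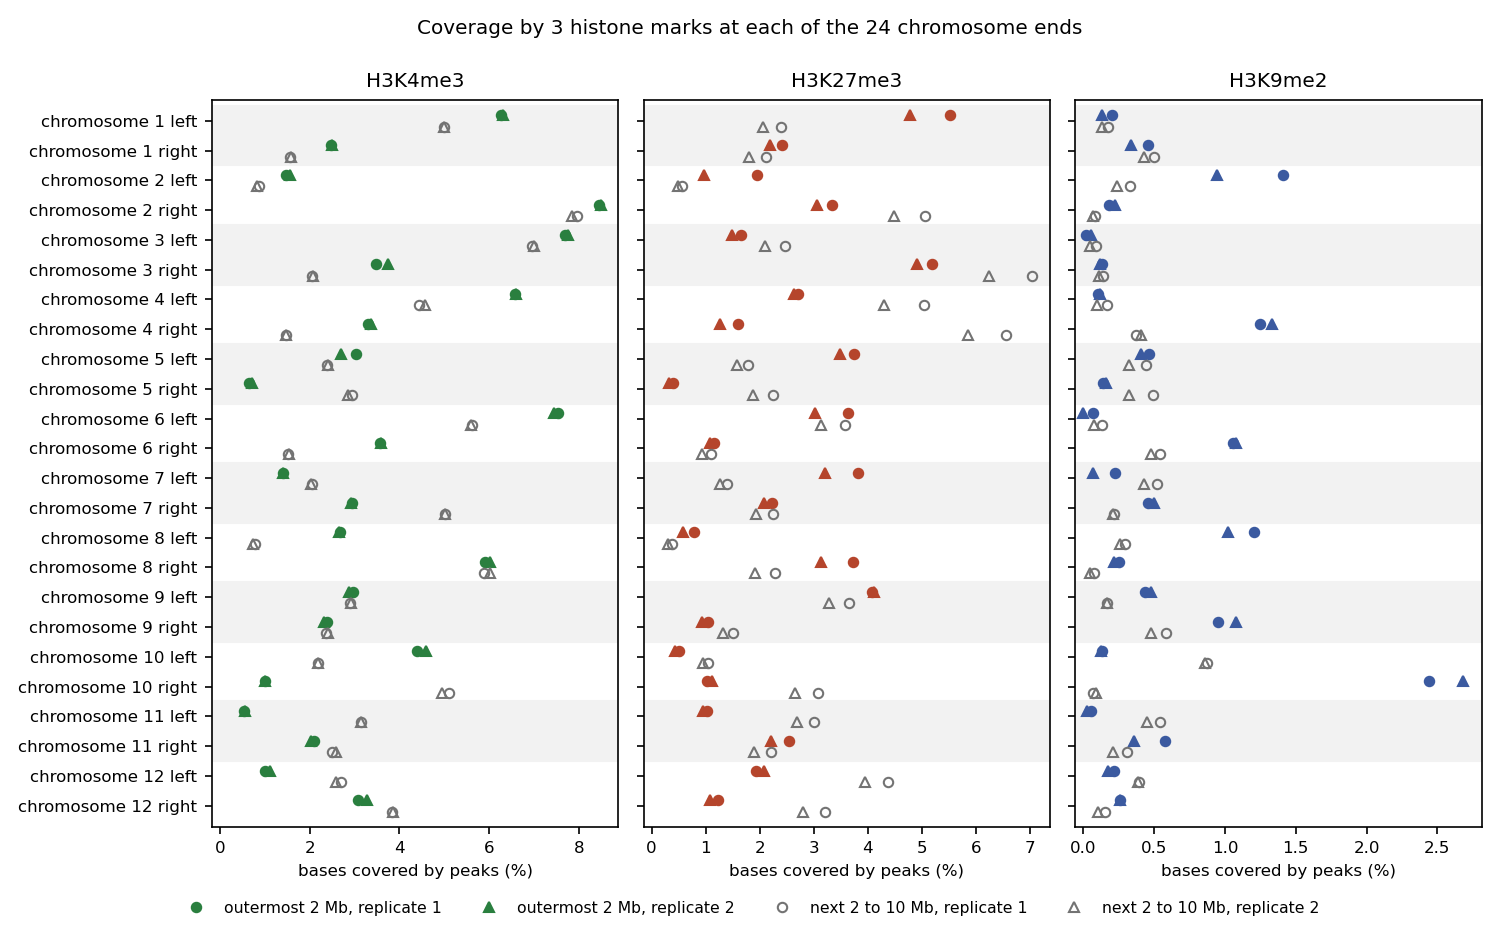
Bases covered by peaks (%, horizontal axis) at each chromosome end (rows) for H3K4me3, H3K27me3 and H3K9me2. Filled symbols are the outermost 2 Mb and open symbols the next 2 to 10 Mb of the same arm, with circles for replicate 1 and triangles for replicate 2. The 2 replicates lie close together at most ends, while ends differ widely, from 0.543 to 8.46% for H3K4me3.

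Single ends differed far more than the averages. H3K4me3 coverage, as the mean of 2 replicates, ran from 0.543% over a median of 2.93% to 8.46%, a 15.6-fold range. For H3K27me3 the lowest, median and highest end had 0.363, 2.08 and 5.15%, and for H3K9me2 0.0329, 0.247 and 2.56%. The replicates ordered the ends alike, with a Spearman's rho over the 24 ends of 0.995 for H3K4me3, 0.967 for H3K27me3 and 0.939 for H3K9me2. Both replicates had more H3K4me3 in the end than in its next stretch at 14 ends, and less at 8. For H3K27me3 these counts were 10 and 12, and for H3K9me2 13 and 7. H3K4me3 covered the most bases at 16 ends, H3K27me3 at 7 and H3K9me2 at 1, the right end of chromosome 10.

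H3K4me3 was richest at the right end of chromosome 2 and the left end of chromosome 3. It covered 8.44 and 8.48% of the chromosome 2 end in replicates 1 and 2, with 165 and 166 peaks, and 7.70 and 7.76% of the chromosome 3 end, with 148 and 147 peaks. Their next stretches were rich as well, with 7.95 and 7.85% (chromosome 2 right) and 6.96 and 7.00% (chromosome 3 left). The poorest were the left end of chromosome 11, with 0.535 and 0.551% and 15 and 12 peaks, and the right end of chromosome 5, with 0.654 and 0.714% and 16 and 17 peaks. Their next stretches held 3.15 and 3.15% (chromosome 11 left) and 2.94 and 2.86% (chromosome 5 right), so at both the end stood well below the stretch beside it. The right end of chromosome 10 was of the same kind, with 1.02 and 0.996% against 5.09 and 4.94% in its next stretch.

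At these 3 ends the H3K4me3 peaks were confined to a few steps of 100 kb. No H3K4me3 peak of either replicate lay between 100 and 1800 kb at the left end of chromosome 11. None lay between 300 and 2000 kb at the right end of chromosome 5, and none between 300 and 1800 kb at the right end of chromosome 10. These are the longest runs of steps without the mark, and the next longest at any end, at the right end of chromosome 11, spanned 1300 to 1900 kb. Over the whole 2 Mb, and not the runs alone, these ends differed in H3K9me2. It covered 0.05105 and 0.02425% at the left end of chromosome 11, 0.137 and 0.161% at the right end of chromosome 5, and 2.44 and 2.68% at the right end of chromosome 10. H3K27me3 covered little of the whole ends, with 1.03 and 0.958% (chromosome 11 left), 0.405 and 0.321% (chromosome 5 right) and 1.02 and 1.11% (chromosome 10 right). At the left end of chromosome 11, the first 100 kb, outside the run, had 7.24 and 8.38% H3K27me3.

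**Figure D2:**
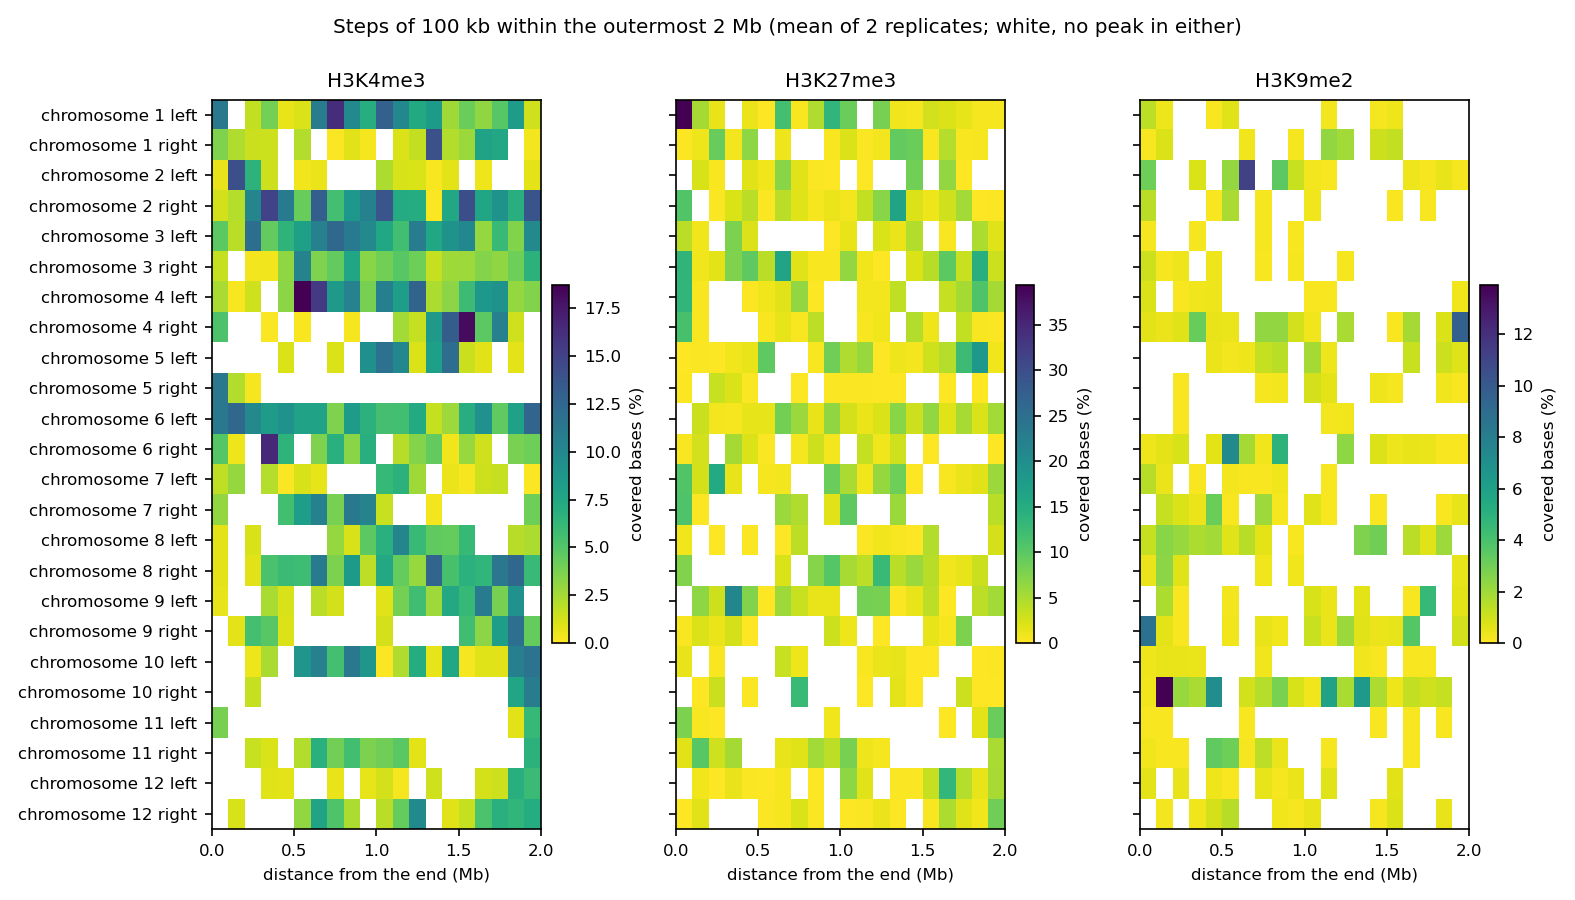
Covered bases (%, colour, mean of 2 replicates) in steps of 100 kb from the end (left) to 2 Mb (right) at the 24 ends, with a colour scale of its own for each mark; white means no peak in either replicate. H3K4me3 is missing over most of the right ends of chromosomes 5 and 10 and the left end of chromosome 11, and H3K27me3 reaches 39.3% in the first step of the left end of chromosome 1.

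H3K27me3 was richest at the left end of chromosome 1 and the right end of chromosome 3, ranked like all ends by bases found in both replicates. It covered 5.52 and 4.78% of the chromosome 1 end in replicates 1 and 2, against 2.40 and 2.07% of its next stretch. At the right end of chromosome 3 it covered 5.18 and 4.90%, against 7.04 and 6.25% of its next stretch. The poorest were the right end of chromosome 5, with 21 and 12 peaks, and the left end of chromosome 10, with 19 and 18 peaks and 0.502 and 0.441% covered. In percentage points, the end stood farthest below its next stretch on the right arm of chromosome 4, with 1.60 and 1.26% of the end and 6.56 and 5.86% of the next stretch.

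By bases found in both replicates, H3K9me2 was richest at the right end of chromosome 10 and the left end of chromosome 2. At the first it covered 2.44 and 2.68% of the bases with 109 and 116 peaks, against 0.0700 and 0.0863% of the next stretch. That end alone held 19.3 and 22.6% of the H3K9me2 bases of the 24 ends. At the left end of chromosome 2 it covered 1.41 and 0.947% with 71 and 50 peaks, against 0.326 and 0.240% of the next stretch. Coverage was above 1% at 6 ends, which were the right ends of chromosomes 4, 6, 9 and 10 and the left ends of chromosomes 2 and 8. No H3K9me2 base was found in both replicates at 3 ends, the left ends of chromosomes 3, 6 and 11. They had 1 and 3, 4 and 0, and 4 and 2 peaks in replicates 1 and 2.

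The H3K9me2-rich ends had less H3K27me3 at the median. At the 6 ends above 1% H3K9me2, H3K27me3 covered 0.689 to 1.46% (median 1.09), against 0.363 to 5.15% (median 2.52) at the other 18. H3K4me3 covered 1.01 to 3.58% (median 2.503) there, against 0.543 to 8.46% (median 3.06). The ranges overlap, and these groups were formed from the data, so no test was made. Over the 24 ends, Spearman's rho was −0.339 for H3K4me3 and H3K9me2, −0.246 for H3K27me3 and H3K9me2, and 0.406 for H3K4me3 and H3K27me3. Over the 24 next stretches it was −0.696, −0.540 and 0.491 in the same order. Ends of a chromosome share libraries and depth, and these values are descriptions.

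The differences between left and right ends did not pass the test in any of the 3 marks. H3K4me3 covered 3.80 ± 2.62% of left and 3.304 ± 2.12% of right ends (SD, 12 chromosomes, left higher on 7, adjusted exact sign-flip p = 0.640). H3K27me3 covered 2.46 ± 1.49% of left and 2.05 ± 1.33% of right ends (left higher on 7, adjusted exact p = 0.640). H3K9me2 covered 0.336 ± 0.403% of left and 0.687 ± 0.710% of right ends, with the left higher on 3 chromosomes (adjusted exact p = 0.640). The H3K9me2 peaks numbered 245 and 193 at left and 414 and 393 at right ends in replicates 1 and 2. The 2 sides are not defined alike, since each right end begins at a peak by construction. Counting the left ends from their first peak gave left minus right differences of 0.508, 0.443 and −0.350 points for H3K4me3, H3K27me3 and H3K9me2, and 0 tests passed. Left and right ends of a chromosome had a Spearman's rho, over the 12 chromosomes, of 0.175, −0.420 and −0.364 in the same order.

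In steps of 100 kb, the 3 marks had different shapes. H3K4me3 was thin in the outermost steps: averaged over the ends, its lowest step was 100 to 200 kb, with 1.63 and 1.74% in replicates 1 and 2, and its highest 1900 to 2000 kb, with 4.86 and 5.0004%. The outer 500 kb had 2.42 ± 2.38% covered and the rest of the 2 Mb 3.93 ± 1.65%, lower in the outer part on 10 of 12 chromosomes. The difference of −1.51 points did not pass the test (exact sign-flip p = 0.0454, adjusted 0.136). The step just outside the 2 Mb bound, 2000 to 2100 kb, had 5.02 and 5.05% H3K4me3, close to the last step inside. For H3K27me3 the last step inside had 2.80 and 2.51% and the first outside 3.31 and 3.03%, and for H3K9me2 0.494 and 0.640% and 0.427 and 0.407%.

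Averaged over the ends, H3K27me3 was highest within the 2 Mb in the first 100 kb. That step had 5.60 and 5.63% covered in replicates 1 and 2, while the step next to it had 1.83 and 1.67%. This did not hold for the median of the ends, which was 1.06% in the first step and 1.35% from 1900 to 2000 kb. The step with least H3K27me3 was 500 to 600 kb, with 0.834 and 0.720%. Among the 80 steps from 2 to 10 Mb, the highest had 5.77 and 5.35%. The first step was above 10% in both replicates at 7 ends, which were both ends of chromosomes 4 and 7, the left end of chromosome 1, and the right ends of chromosomes 2 and 3. The 4 highest of the 24 ends held 57.2 and 58.4% of the bases in that step, and 5 ends had no H3K27me3 peak in it. Over the outer 500 kb the coverage was 2.64 ± 1.95%, against 2.13 ± 0.586% in the rest of the 2 Mb (adjusted exact p = 0.337). Taking the outer 100 kb in its place, a choice made after seeing the profile, gave 5.61% against 2.08%, higher on 7 of 12 chromosomes (exact p = 0.0659, adjusted 0.198).

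H3K9me2 was also highest near the end, with 0.958 and 0.912% in the first step and 1.10 and 1.06% from 100 to 200 kb. The outer 500 kb had 0.719 ± 0.726% covered and the rest of the 2 Mb 0.442 ± 0.275% (outer part higher on 8 of 12 chromosomes, adjusted exact p = 0.199). Single ends carried these steps. The first step was led by the right end of chromosome 9, with 7.74 and 9.74%, and the second by the right end of chromosome 10, with 13.6 and 14.2%.

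**Figure D3:**
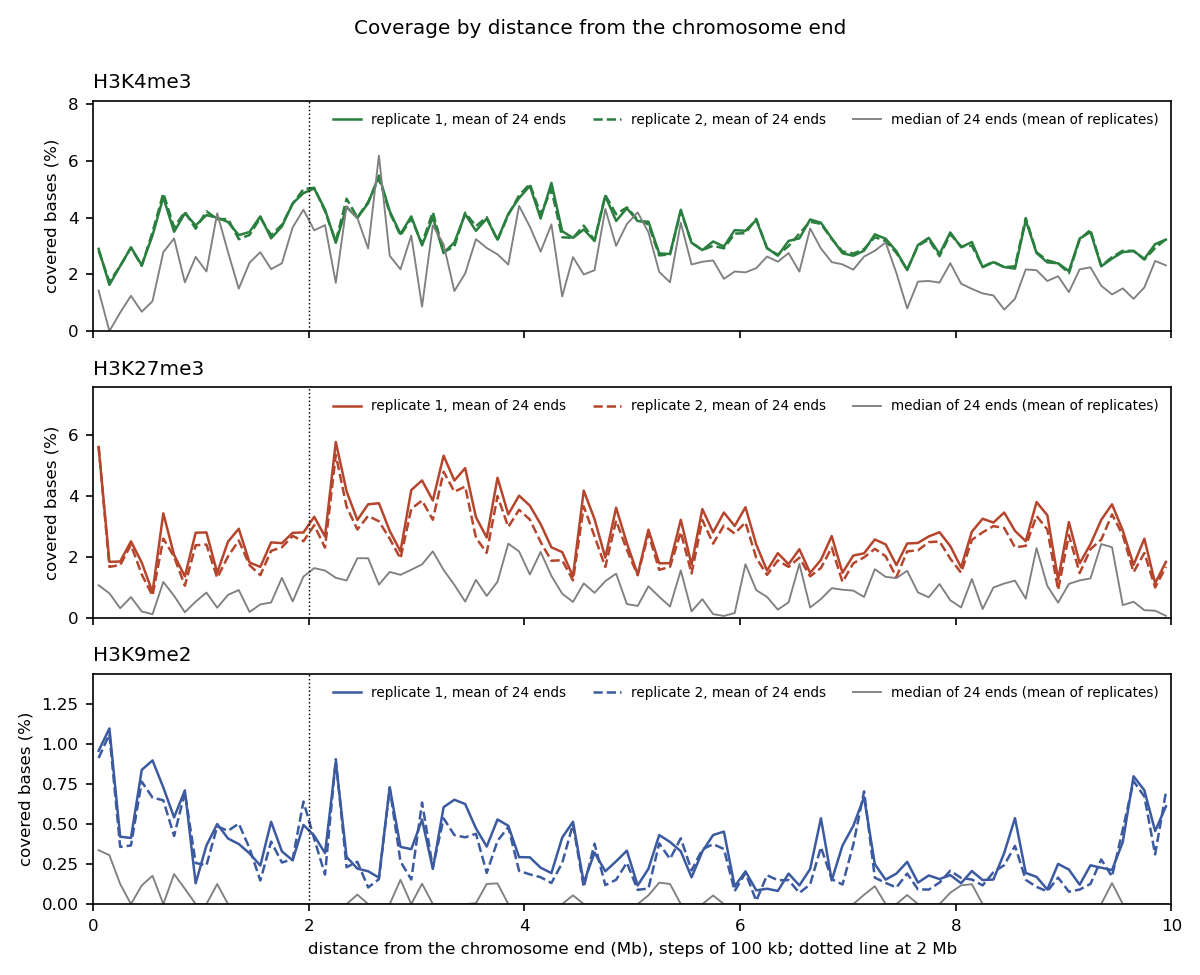
Covered bases (%, vertical axis) in steps of 100 kb against distance from the end (Mb), as the mean of 24 ends in replicate 1 (solid) and replicate 2 (dashed) and as the median of the ends (grey). The first step holds 5.60 and 5.63% H3K27me3 in the mean but 1.06% in the median, and H3K4me3 has its low from 100 to 200 kb.

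Counted by the outermost peak of either replicate, the outermost mark was most often H3K27me3. It was H3K27me3 at 6 left and 8 right ends, H3K4me3 at 2 left and 1 right, and H3K9me2 at 4 left and 3 right. At the left end of chromosome 3 and the right ends of chromosomes 5 and 12, this mark rests on 1 replicate alone. At the right end of chromosome 5, H3K27me3 lay at 0 kb in replicate 1 and 204 kb in replicate 2. H3K4me3 lay at 9.29 kb there in both. Each right end is set by its own outermost peak. At left ends, which count from the first base, H3K27me3 began within 1 kb of the end in both replicates on 3 chromosomes (1, 4 and 7). H3K4me3 did so at no left end, where its outermost peak lay between 11.6 and 414 kb from the first base, with a median of 47.7 kb. The median at left ends was 61.8 kb for H3K27me3, farther in than that of H3K4me3, and 55.9 kb for H3K9me2.

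The 480 steps of 100 kb were filled unevenly. No H3K4me3 peak of either replicate lay in 153 of them, no H3K27me3 peak in 148 and no H3K9me2 peak in 251, and 30 steps had no peak of any mark. H3K4me3 covered more than 10% of 50 steps, H3K27me3 of 22 and H3K9me2 of 2. The 24 richest steps held 19.6% of the H3K4me3 bases found in both replicates, 34.0% of the H3K27me3 bases and 71.6% of the H3K9me2 bases. H3K9me2 thus had the largest share in its richest steps, and H3K4me3 the smallest. This share also depends on how much of a mark there is. Bases found in both replicates came to 65.4 kb in 82 steps for H3K9me2 and 831 kb in 250 steps for H3K27me3. For H3K4me3 they came to 1519 kb in 314 steps. Evenness at an equal amount was not tested. The richest H3K4me3 steps lay at the left ends of chromosomes 4 (500 to 600 kb, 18.7%) and 1 (700 to 800 kb, 16.3%), as means of 2 replicates. Those of H3K27me3 lay at the left ends of chromosomes 1 (0 to 100 kb, 39.3%) and 9 (300 to 400 kb, 21.3%). Those of H3K9me2 lay at the left end of chromosome 2 (600 to 700 kb, 11.2%) and the right end of chromosome 10 (100 to 200 kb, 13.9%).

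Steps with H3K9me2 held less H3K4me3. In the 82 steps with H3K9me2 bases found in both replicates, the median H3K4me3 coverage was 0.504%, against 2.30% in the other 398, and the mean 1.62%, against 3.95%. For H3K27me3 the median was 0.258% there, against 0.590%, while the mean was 2.03% against 2.31%, and 24 of the 82 steps had no H3K27me3 peak, against 124 of the 398. Over the 480 steps, Spearman's rho was −0.310 for H3K4me3 and H3K9me2, −0.178 for H3K27me3 and H3K9me2, and 0.358 for H3K4me3 and H3K27me3, again as a description.

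Of the 3 marks, H3K9me2 had the largest share of its outer bases in the end. The share of the covered bases of the outer 10 Mb that lies in the outer 2 Mb would be 20% if bases were spread evenly. It was 20.1 ± 6.30% for H3K4me3 (SD, 12 chromosomes), 19.0 ± 7.90% for H3K27me3 and 29.0 ± 13.6% for H3K9me2. H3K4me3 minus H3K9me2 was −8.98 ± 11.9 points, lower on 10 of 12 chromosomes, and did not pass (exact sign-flip p = 0.0244, adjusted 0.0732). H3K27me3 minus H3K9me2 was −10.1 ± 16.2 points (lower on 8, adjusted exact p = 0.0872), and H3K4me3 minus H3K27me3 was 1.09 ± 9.57 points (adjusted exact p = 0.701). With the outermost 1 Mb as the end, H3K4me3 minus H3K9me2 was −10.3 points (adjusted exact p = 0.00586) and H3K27me3 minus H3K9me2 −9.42 points (adjusted exact p = 0.0359), and both passed. Without chromosome 10, left out after its values were seen, they were −7.47 and −8.02 points (adjusted exact p = 0.146 and 0.174). With the outermost 3 Mb they were −6.10 and −7.08 points (adjusted exact p = 0.270 for both). All 12 alternatives kept the direction of both differences, and 3 and 1 of them passed in the same order.

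For peak number, 0 of 3 differences between end and next stretch passed. H3K4me3 had 38.0 ± 16.3 peaks per Mb in the ends and 37.2 ± 5.19 in the next stretches (SD, 12 chromosomes, adjusted exact p = 0.833). H3K27me3 had 34.1 ± 10.7 and 39.0 ± 16.8 in the same order (adjusted exact p = 0.587). H3K9me2 had 12.97 ± 7.81 in the ends and 7.51 ± 2.34 in the next stretches, with the end higher on 8 chromosomes (exact p = 0.0332, adjusted 0.0996). With the outermost 1 Mb as the end this difference was 8.71 peaks per Mb and passed (adjusted exact p = 0.0352). It also passed with peaks joined within 3 kb, at 3.60 per Mb (adjusted exact p = 0.0469). With the outermost 3 Mb it was 4.55 per Mb and did not pass (adjusted exact p = 0.0776).

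For width and spacing, 0 of 6 tests passed. The median H3K4me3 peak was 837 ± 48.01 bp wide in the ends and 796 ± 54.5 bp in the next stretches, wider in the ends on 8 of 12 chromosomes (exact p = 0.0298, adjusted 0.0894). For H3K27me3 it was 457 ± 38.7 bp in the ends and 476 ± 25.6 bp in the next stretches (adjusted exact p = 0.356), and for H3K9me2 322 ± 18.7 and 321 ± 14.6 bp (adjusted exact p = 0.800). H3K27me3 peaks were the most crowded: 78.1 ± 5.09% of them in the ends had another H3K27me3 peak within 3 kb, and 79.6 ± 5.27% in the next stretches (adjusted exact p = 0.560). For H3K4me3 this share was 41.9 ± 6.89% in the ends and 39.1 ± 3.71% in the next stretches (adjusted exact p = 0.560). For H3K9me2 it was 41.7 ± 19.2 and 42.7 ± 11.5% (adjusted exact p = 0.819). Over all H3K9me2 peaks of a library, the direction was the other way. There it was 47.2 and 52.0% in the ends and 44.7 and 45.6% in the next stretches, in replicates 1 and 2. Once peaks within 3 kb were joined, H3K27me3 regions were 348 bp narrower in the ends (adjusted exact p = 0.0425) and H3K9me2 regions 62.0 bp wider (adjusted exact p = 0.0190).

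By chains of peaks with gaps of at most 3 kb, H3K27me3 was again the most crowded mark, while H3K9me2 stood above H3K4me3. Chains of 5 or more held 41.7 and 38.1% of the H3K27me3 peaks in the ends and 41.4 and 37.8% in the next stretches, in replicates 1 and 2. They held 1.35 and 1.83% of the H3K4me3 peaks in the ends and 3.25 and 2.504% in the next stretches. For H3K9me2 they held 9.71 and 12.6% in the ends and 12.5 and 13.3% in the next stretches. These shares were not tested. The longest H3K27me3 chain in the ends reached 57.9 kb in replicate 2, with 32 peaks, on chromosome 1 from 442 to 58315. In replicate 1 the longest was 34.0 kb with 22 peaks, on chromosome 3 from 288728017 to 288762064. Longer chains lay in the next stretches, up to 166 and 92.5 kb. The longest H3K9me2 chain was at the right end of chromosome 10 in both replicates, but at places that do not overlap. In replicate 1 it ran from 248305710 to 248325125 with 11 peaks, and in replicate 2 from 248279248 to 248303097 with 16 peaks.

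**Figure D4:**
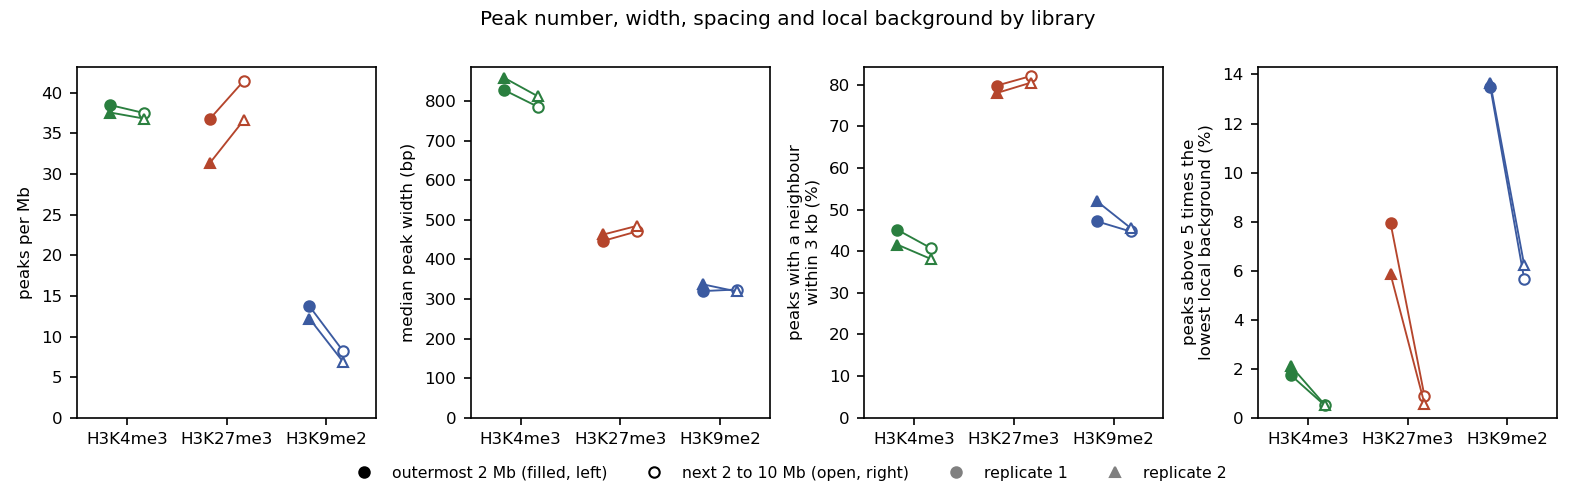
Peaks per Mb, median width (bp), share of peaks with a neighbour within 3 kb (%) and share of peaks with high local background (%) in each library, for the outermost 2 Mb (filled, left) and the next 2 to 10 Mb (open, right). The share with high background is larger in the ends in each of the 6 libraries, up to 13.7% for H3K9me2.

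Peaks at the ends lay on high local background more often than peaks of the next stretches in each of the 6 libraries. Local background is the level of fragments that the caller expected around the peak, and these shares were not tested. Background above 5 times the lowest of the library was found for 1.73 and 2.11% of H3K4me3 peaks in the ends and 0.4997 and 0.523% in the next stretches. For H3K27me3 the shares were 7.93 and 5.85% in the ends and 0.879 and 0.569% in the next stretches, and for H3K9me2 13.5 and 13.7% and 5.67 and 6.24%. In the first 100 kb they were 23.6 and 21.5% for H3K4me3, 29.8 and 30.8% for H3K27me3, and 14.8 and 14.0% for H3K9me2. The part of this background in the results was not tested, but values without such peaks were computed. Without them, the first 100 kb had 3.70 and 3.89% H3K27me3, against 1.92 and 1.69% from 100 to 500 kb, and 0.829 and 0.809% H3K9me2. The H3K27me3 difference between the outer 500 kb and the rest of the 2 Mb was 0.158 points without them, against 0.512 points with them (outer part higher on 5 of 12 chromosomes, adjusted exact p = 0.723). The H3K9me2 difference between end and next stretch was 0.170 points without them (adjusted exact p = 0.208).

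The left end of chromosome 2 had the most such H3K9me2 peaks in both replicates, and the most such H3K27me3 peaks in replicate 1, while in replicate 2 the left end of chromosome 12 had the most, with 16. Of its 71 and 50 H3K9me2 peaks, 36 and 36 lay on high background, and of its 71 and 25 H3K27me3 peaks 38 and 1. Between 600 and 900 kb from that end, replicate 1 of H3K27me3 had 37 peaks and replicate 2 had 3, while H3K9me2 had 35 and 35. On high background lay 33 and 1 of these H3K27me3 peaks and 28 and 29 of these H3K9me2 peaks. The H3K27me3 coverage of that end was 1.95 and 0.978%. At the left end of chromosome 12, high background was under 10 and 5 of the 13 and 11 H3K9me2 peaks.

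Being found again in the other replicate was common for H3K4me3 and H3K27me3 peaks of the ends and uncommon for H3K9me2 peaks. The overlap had to span 50% or more of the shorter of the peaks, which over the 12 chromosomes held for 89.7 and 90.9% of H3K4me3 peaks, 72.7 and 84.0% of H3K27me3 peaks and 20.6 and 26.5% of H3K9me2 peaks. In the ends it held for 88.1 and 89.5% of H3K4me3 peaks and 69.4 and 80.9% of H3K27me3 peaks. It held for 28.4% of the H3K9me2 peaks of replicate 1 (187 of 659, 95% Wilson interval 25.1 to 31.9%) and 31.9% of replicate 2 (187 of 586, 28.3 to 35.8%). Without peaks on high background these H3K9me2 shares were 22.5 and 26.1% in the ends, and 16.0 and 20.8% over the 12 chromosomes. The median end peak had 75 and 85 fragments over its summit for H3K4me3, 22 and 21 for H3K27me3, and 17 and 17 for H3K9me2, so single H3K9me2 peaks rest on few fragments. The intervals cover counting error only.

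The authors' fold enrichment of end peaks was 25.2 and 24.9 at the median for H3K4me3, against 21.2 and 20.5 in the next stretches. For H3K27me3 it was 7.18 and 7.62 in the ends, against 8.25 and 8.54, and for H3K9me2 4.05 and 4.13, against 4.16 and 4.23. Median H3K4me3 fold ran over the ends from 10.9 to 42.2 in replicate 1 and from 8.01 to 38.2 in replicate 2, lowest at the left end of chromosome 2 in both. These folds are relative to each library's own background and were not tested.

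Regions covered in both replicates over at least 100 bp numbered 1659 for H3K4me3 in the ends, 1316 for H3K27me3 and 200 for H3K9me2. Per Mb this was 34.6 in the ends and 33.8 in the next stretches for H3K4me3, 27.4 and 32.5 for H3K27me3, and 4.17 and 2.04 for H3K9me2. Of the 200 H3K9me2 regions, 52 lay on high background in both replicates. In the ends the median H3K4me3 region was 830 bp long, that of H3K27me3 447 bp and that of H3K9me2 284 bp. At least 2 kb were reached by 82 H3K4me3 and 41 H3K27me3 regions and by 0 H3K9me2 regions. The following regions are named by their fold or length within the ends, and no gene is assigned to them, since the gene table at hand is of another assembly.

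The H3K4me3 regions of highest mean fold in the ends lay on chromosomes 10, 3 and 4. That at the left end of chromosome 10, from 1283511 to 1284794, had a fold of 264 and 428 in replicates 1 and 2. On chromosome 3 from 287451866 to 287452716 it was 319 and 335, and on chromosome 4 from 1652883 to 1654428 it was 356 and 276. The longest were 4921 bp on chromosome 10 from 819987 to 824907, with a fold of 40.0 and 15.8, and 4890 bp on chromosome 6 from 250993775 to 250998664, with 155 and 122. The last lies 81.7 kb from the right end, by its midpoint.

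The strongest H3K27me3 region lay on chromosome 1 from 1505747 to 1507036, with a fold of 83.9 and 110 in replicates 1 and 2. It was followed by chromosome 3 from 288738801 to 288741749, with 96.0 and 93.5, and chromosome 5 from 1838315 to 1841157, with 99.5 and 72.1. The longest, 7299 bp on chromosome 2 from 178532357 to 178539655, has its midpoint 5.73 kb from the right end and a fold of 11.9 and 17.2. The next, 4102 bp on chromosome 8 from 173053503 to 173057604, had 23.5 and 31.3. The longest regions were not the strongest ones in either of these marks.

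H3K9me2 regions were weaker and shorter. The highest mean fold was on chromosome 10 from 247313898 to 247314061, a region of 164 bp with a fold of 5.94 and 7.77 on 15 and 17 fragments. The next lay at the tip of the right arm of chromosome 9, from 280263329 to 280263777 with 6.58 and 5.74, and from 280265419 to 280265828 with 5.01 and 6.93. Their midpoints are 2.498 and 0.427 kb from the last peak end. The longest were 1082 bp on chromosome 11 from 275516101 to 275517182, with 4.004 and 4.09 on high background in both replicates, and 899 bp on chromosome 10 from 248321113 to 248322011, with 5.20 and 3.74.

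Most bases of a mark were not shared with another mark. H3K4me3 and H3K27me3 shared 165 intervals in the ends, 76.7 kb in all, which is 5.05% of the H3K4me3 bases and 9.23% of the H3K27me3 bases found in both replicates there. In the next stretches these shares were 4.91 and 6.94%. Of all bases, regions found in both replicates covered 1.73% of the ends and 2.12% of the next stretches for H3K27me3. For H3K4me3 they covered 3.16 and 2.99%. The shares of each mark's bases that lay in the other were thus above its share over all bases, which was not tested. The longest lay on chromosome 1 from 631246 to 633188, where the H3K4me3 fold was 145 and 49.5 and the H3K27me3 fold 21.8 and 22.7. The second lay on chromosome 10 from 611217 to 612575, where the H3K4me3 fold was 61.3 and 39.2 and the H3K27me3 fold 18.7 and 12.03. The left end of chromosome 1 had most such bases, with 10300 in 20 intervals.

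H3K27me3 and H3K9me2 shared 9 intervals and 2789 bases in the ends, against 3 intervals and 996 bases in the next stretches, which are 4 times as long. That is 4.26% of the H3K9me2 bases of the ends, against 0.790%. Of all bases, H3K27me3 regions found in both replicates covered 1.73% of the ends and 2.12% of the next stretches. The longest, 559 bp on chromosome 9 from 128262 to 128820, had an H3K27me3 fold of 9.82 and 10.02 and an H3K9me2 fold of 5.73 and 6.05. The second, 444 bp on chromosome 7 from 27948 to 28391, had an H3K27me3 fold of 3.88 and 3.41 and an H3K9me2 fold of 3.32 and 4.48. H3K4me3 and H3K9me2 shared 0 bases in the ends and 274 in the next stretches. These counts are small and were not tested.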

How the data were processed

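Chromatin immunoprecipitation sequencing libraries of 3 marks, with 2 replicates each, were analysed as peak lists. The 6 input samples enter through peak calling alone. Per the labels' protocols, young leaf was fixed in 1% formaldehyde and libraries were read as 150 bp pairs. MACS2 2.2.7.1, deepTools 3.3.0, BWA 0.7.17 and Trimmomatic 0.38 are named per the submitters' processing notes; their roles and settings and the genome build were not given in the sources used here. There is 1 deposited list of narrow peaks per library. Each peak in it has the authors' fold enrichment (a linear ratio to the local background) and its p-value and q-value as −log10. Total depth is not given. Fragments over a summit and local background were recovered by taking the fold to be n + 1 divided by background + 1, and p to be a Poisson upper tail above n; n was whole within 0.01 for 100% of the peaks of each list.

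Positions count from 1. Peaks on other sequences (2840) were left out. Coverage used merged peaks cut at window bounds, and other measures used peak midpoints. The sign-flip tests had p-values adjusted after Benjamini and Hochberg across the 3 marks or 3 pairs of marks, with a threshold of 0.05. Alternatives were a −log10 q of at least 5 or 10, background limits, other widths and neighbours of the end, joining, bases of both or either replicate, and single replicates. Named are the richest and poorest ends and steps, the strongest and longest regions and the longest intervals of 2 marks; the H3K4me3-poor right end of chromosome 10, the right end of chromosome 4 and the left ends of chromosomes 2 and 12 in the text on background were chosen after their values were seen. The ends and tests were chosen with earlier results of these data known. The test of peak number was checked on simulated lists of evenly scattered peaks of equal width, and the sign-flip test on simulated normal values. The tests of the other measures were not checked on such lists. Python 3.11.15, numpy 2.4.6, scipy 1.17.1, pandas 2.3.3 and matplotlib 3.10.9 were used.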

Additional observations from a re-analysis of the deposited data

How the results depend on the processing

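Of 237 alternative values of the 21 tests, 211 kept their direction, 26 turned it and 9 passed the adjusted threshold that the reported test had missed. With 1 Mb ends, H3K9me2 coverage (0.342 points), H3K9me2 number (8.71 per Mb) and the shares of H3K4me3 minus H3K9me2 (−10.3) and H3K27me3 minus H3K9me2 (−9.42) passed. With 3 Mb ends none of these passed. With joining within 3 kb, H3K9me2 number (3.60 per Mb) and the widths of H3K27me3 (−348 bp) and H3K9me2 (62.0 bp) passed. H3K4me3 minus H3K9me2 in the share of the outer 10 Mb passed with the next 2 to 5 Mb (−11.8 points, adjusted exact p = 0.0425) and, at −9.88 without replicate 1, ranged from −9.88 to −8.19 over single replicates. Directions turned in differences that had not passed. With the next 2 to 5 Mb, H3K4me3 gave −0.459 points, −6.18 peaks per Mb and −0.478 points in neighbours within 3 kb, and H3K9me2 width −2.85 bp. With 1 Mb ends, H3K4me3 gave −0.270 points and −4.53 peaks per Mb, H3K27me3 width was 3.02 bp, and H3K4me3 minus H3K27me3 −0.857. With 3 Mb ends, H3K27me3 gave 0.0637 points, 0.448 peaks per Mb, 1.98 bp and −0.269 for left minus right, and H3K9me2 −0.208 bp and 1.14 points in neighbours. Joining within 3 kb gave −0.177 H3K4me3 peaks per Mb. At a −log10 q of at least 5, H3K9me2 width was −17.7 bp and neighbours 0.234 points. At 10, H3K27me3 width was 8.15 bp, and H3K9me2 gave 12.2 points in neighbours on the 6 chromosomes with such peaks, 0.00536 for left minus right and −0.0182 for the outer 500 kb. Neighbours within 1 kb gave −1.19 (H3K4me3) and 0.313 points (H3K9me2), and within 10 kb 6.24 (H3K9me2). Single replicates gave −5.96 to 8.75 bp for H3K9me2 width and −2.23 to 0.287 points for its neighbours. Without peaks on high background the H3K27me3 difference of the outer 500 kb was 0.158 points. The cause was not tested. The labels do not say that replicate numbers pair the libraries; with the replicate number as a block, the exact p over libraries was 0.167, the smallest that 36 arrangements allow, so the block could not decide. The few fragments per H3K9me2 and H3K27me3 peak limit the values of single peaks.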
